A study of Mus musculus with 7 samples.

Results

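The genes described here are 8, of 22225 protein-coding genes, that regulate cell division and cell fate: the cyclin-dependent kinase inhibitor genes Cdkn1a, Cdkn1b and Cdkn2b, the D-type cyclin genes Ccnd1 and Ccnd2, the stress-response gene Gadd45a, and the forkhead transcription factor genes Foxo1 and Foxo3. For each, the peaks of the vitamin D receptor (VDR) with a centre within 50 kb of the gene body were taken from ChIP-seq (chromatin immunoprecipitation followed by sequencing) peak lists on mouse build mm9. Peaks that overlapped by at least 1 bp in different libraries were merged into a region, which gave 81 regions at the 8 genes, of 87029 in the genome.

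In 3 libraries the mice had received the vitamin D hormone 1,25(OH)2D3, at 10 ng per g of body weight, 1 h before the tissue was taken, and in 3 libraries they had received vehicle. Mice of both groups were wild type, aged 8 weeks and on standard chow. All 6 libraries came from epithelial cells shed with EDTA from duodenum and jejunum, and were made with 1 anti-VDR antibody. Whether the 3 libraries of a group are separate mice is not given in the labels, and p-values therefore reflect the spread between libraries, which may be technical. The peak lists carry no expression values, so the tissue label was not checked against marker genes.

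The D-type cyclins activate the kinases CDK4 and CDK6, which inactivate the retinoblastoma protein and let a cell leave G1 and begin to copy its DNA. Inhibitors of the INK4 family, such as the product of Cdkn2b (p15), block those kinases, while the products of Cdkn1a (p21) and Cdkn1b (p27) act on cyclin-kinase complexes more widely. FOXO factors are held in the cytoplasm by insulin and AKT signalling. In the nucleus they activate genes of growth arrest and stress resistance, Cdkn1b and Gadd45a among them. In the small intestine, division is restricted to the crypts, and cells stop dividing as they move onto the villus. The VDR binds DNA with the retinoid X receptor, classically at the DR3 element, a direct repeat of a hexamer related to AGGTCA with a 3 bp spacer, and CDKN1A is a known VDR target gene in human cells.

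The sequences below are the bases within 100 bp of the centres of 7 regions, on the plus strand of mm9. The first 3 are those found in all 6 libraries. The fourth is the hormone-only region (a peak in each 1,25(OH)2D3 library and in none with vehicle) with the closest DR3 match, and the last 3 are the regions of Ccnd2 found in 2 or more of the 3 1,25(OH)2D3 libraries, each of which held a DR3 match. Capitals mark a DR3 match with at most 1 mismatch or, where a window held none, the hexamers AGGTCA and AGTTCA on either strand.
Cdkn1a +3.62 kb, all 6 libraries, chr17:29231446-29231646: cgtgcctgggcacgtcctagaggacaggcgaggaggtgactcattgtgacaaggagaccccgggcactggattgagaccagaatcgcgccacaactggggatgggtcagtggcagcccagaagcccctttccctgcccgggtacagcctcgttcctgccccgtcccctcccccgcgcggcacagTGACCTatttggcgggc
Cdkn2b +0.89 kb, all 6 libraries, chr4:88955951-88956151: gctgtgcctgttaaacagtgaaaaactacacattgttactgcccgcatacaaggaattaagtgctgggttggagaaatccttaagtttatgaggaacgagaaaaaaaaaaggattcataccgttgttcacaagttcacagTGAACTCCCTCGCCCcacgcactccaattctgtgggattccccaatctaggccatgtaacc
Foxo3 +12.4 kb, all 6 libraries, chr10:41984102-41984302: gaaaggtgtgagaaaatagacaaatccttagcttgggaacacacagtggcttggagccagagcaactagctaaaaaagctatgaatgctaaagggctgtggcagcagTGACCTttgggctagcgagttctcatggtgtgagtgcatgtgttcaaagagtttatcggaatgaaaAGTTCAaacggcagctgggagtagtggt
Ccnd1 +43.5 kb, hormone-only, chr7:152082165-152082365: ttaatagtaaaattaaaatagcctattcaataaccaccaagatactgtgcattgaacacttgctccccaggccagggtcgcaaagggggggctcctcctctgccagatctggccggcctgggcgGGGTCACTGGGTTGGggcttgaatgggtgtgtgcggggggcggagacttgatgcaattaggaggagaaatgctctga
Ccnd2 +6.08 kb, 2 of 3 1,25(OH)2D3 libraries and no vehicle library, chr6:127094887-127095087: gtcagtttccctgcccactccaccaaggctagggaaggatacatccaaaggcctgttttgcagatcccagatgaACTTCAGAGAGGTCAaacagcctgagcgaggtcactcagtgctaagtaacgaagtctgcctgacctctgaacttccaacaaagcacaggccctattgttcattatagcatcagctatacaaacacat
Ccnd2 +1.29 kb, all 3 1,25(OH)2D3 libraries and 1 vehicle library, chr6:127099673-127099873: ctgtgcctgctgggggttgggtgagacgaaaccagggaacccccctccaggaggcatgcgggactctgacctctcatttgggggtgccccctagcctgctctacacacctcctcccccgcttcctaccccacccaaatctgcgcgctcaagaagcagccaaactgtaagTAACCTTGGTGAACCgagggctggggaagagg
Ccnd2 -8.11 kb, 2 of 3 1,25(OH)2D3 libraries and 1 vehicle library, chr6:127109072-127109272: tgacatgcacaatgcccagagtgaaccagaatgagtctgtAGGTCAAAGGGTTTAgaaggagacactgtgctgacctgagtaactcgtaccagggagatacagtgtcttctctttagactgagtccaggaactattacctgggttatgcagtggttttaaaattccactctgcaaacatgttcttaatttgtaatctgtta

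Depth and enrichment differed between the libraries. The 1,25(OH)2D3 libraries (replicates 1, 2 and 3) held 17152461, 17438643 and 66524392 tags and the vehicle libraries 19733260, 15991198 and 68560701. Replicate 3 was thus by far the deepest in both groups. A peak needed at least 10, 11 and 20 tags in the 1,25(OH)2D3 libraries and 11, 10 and 17 in the vehicle libraries. The share of tags that lay in peaks was 11.86%, 15.89% and 18.96% with 1,25(OH)2D3 and 2.58%, 4.81% and 8.10% with vehicle. The lists give no tag count per peak, so what follows is the presence or absence of peaks. In a mixed cell preparation, a site bound in fewer cells and one bound less in each cell cannot be told apart.

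Together the 8 genes had 41, 41 and 46 peaks in 1,25(OH)2D3 replicates 1, 2 and 3, against 7, 21 and 42 in vehicle replicates 1, 2 and 3. The deep vehicle library thus lay within the range of the hormone libraries, and the others lay below it. As a share of each library's own list, these peaks made up 0.161%, 0.135% and 0.11% with 1,25(OH)2D3 and 0.08%, 0.141% and 0.0867% with vehicle, and on this scale the groups overlapped. Every gene had at least 1 peak in every 1,25(OH)2D3 library. In vehicle replicate 1 Ccnd1, Ccnd2 and Gadd45a had no peak, and in vehicle replicate 2 Ccnd2 had none. These were also the shortest lists, with 8755 and 14887 peaks, against 25509 to 48424 in the others. The share of all genes with a peak was not computed by library.

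**Figure D1:**
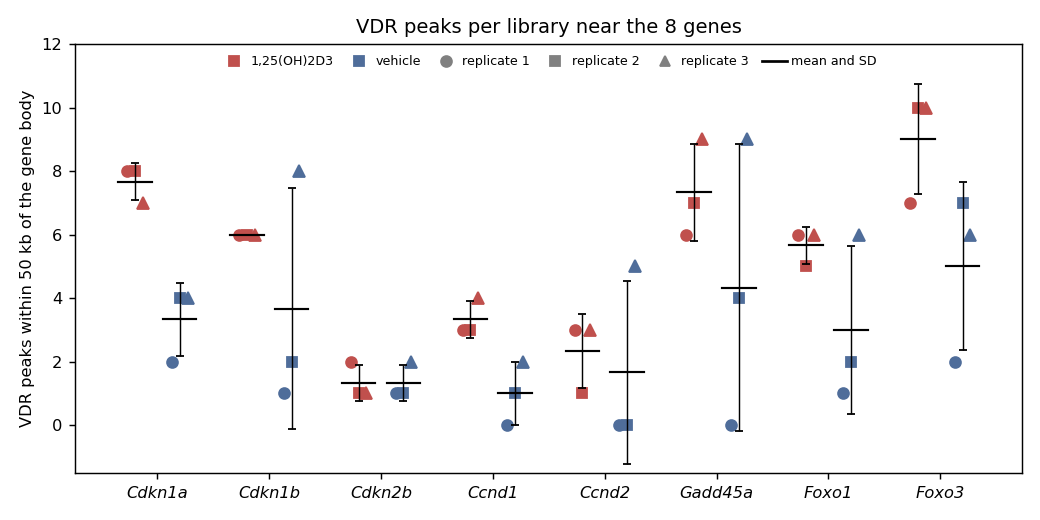
Number of VDR peaks within 50 kb of each gene body (y axis) in each library, with 1,25(OH)2D3 in red on the left of each gene and vehicle in blue on the right. Marker shapes give the replicate, and black lines the mean and SD (n = 3). The groups do not overlap at Cdkn1a and Ccnd1, and the deep vehicle library (triangle) is level with or above every 1,25(OH)2D3 library at Cdkn1b, Cdkn2b, Ccnd2, Gadd45a and Foxo1.

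Peak numbers were higher in every 1,25(OH)2D3 library than in every vehicle library at 2 of the 8 genes, Cdkn1a and Ccnd1, and lower in every one at none. Over 22225 protein-coding genes the same was true of 16.0% in the higher direction and of 0.0450% in the lower. The mean was higher with 1,25(OH)2D3 at 7 of 8 genes, against 63.6% of all genes, and equal at Cdkn2b. With 3 libraries against 3, the exact permutation test cannot give a p below 0.1, so no single gene could pass at 0.05, and 0 of 22225 genes had an unadjusted p under 0.05. The smallest p adjusted over all genes by the Benjamini-Hochberg method was 0.621 (exact permutation). The median difference (1,25(OH)2D3 minus vehicle) was 2.5 peaks per gene over the 8 genes and 0.667 over all genes.

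These counts depended on which libraries, and how much of each list, were counted. Without vehicle replicate 3, peak numbers were higher in every 1,25(OH)2D3 library at 6 of 8 genes (42.3% of all genes) and lower at none (0.0765% of all), and the mean was higher at 8 (78.6% of all). In the deep pair alone the number was higher with 1,25(OH)2D3 at 3 genes (Cdkn1a, Ccnd1 and Foxo3; 45.0% of all genes) and lower at 3 (Cdkn1b, Cdkn2b and Ccnd2; 32.2%). Every list was also shortened to its first 8755 peaks, the length of the shortest. None of the 8 genes then had higher peak numbers in every 1,25(OH)2D3 library (4.05% of all genes did) or lower numbers in every one (1.85%). The mean was higher with 1,25(OH)2D3 at 1 gene, Gadd45a (24.5% of all genes). Ccnd1 and Ccnd2 had no peak left in the shortened lists, so they could not be compared.

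Of the 81 regions, 40 (49.4%) were found in 2 or more of the 3 1,25(OH)2D3 libraries and 14 (17.3%) in 2 or more of the 3 vehicle libraries, against 32.4% and 12.1% of all merged regions. Each of the 8 genes had a region of the first kind (70.2% of all genes did), and all but Ccnd2 had one of the second (49.0%). The hormone-only regions numbered 7 (8.64%), against 5.39% of all merged regions, and lay at Cdkn1a, Gadd45a, Foxo1 (2 each) and Ccnd1 (1). Thus 4 of 8 genes had one, against 33.2% of all genes. A further 3 regions (3.7%) were found in all 6 libraries, against 4.99% of all merged regions, 1 each at Cdkn1a, Cdkn2b and Foxo3 (29.1% of all genes had one). No region had a peak in each vehicle library and in none with 1,25(OH)2D3 (0.0299% of all). A peak in 1 library only was seen in 33 regions (40.7%), 16 of them from vehicle replicate 3, against 62.6% of all merged regions. The other regions were in several libraries of 1 or both groups.

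Regions with a peak in all 3 1,25(OH)2D3 libraries numbered 27, of which 7 were absent from every vehicle library (26.2% of such regions genome-wide were). Of 65 regions at the 8 genes without vehicle replicate 3, 14 were hormone-only (13.8% of all regions merged in that way). Without 1,25(OH)2D3 replicate 1 it was 11 of 76 (9.88% of all), and with all lists of the same length 1 of 26 (4.05% of all). Regions in all remaining libraries numbered 8 of 81 once vehicle replicate 1 was left out (8.05% of all).

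**Figure D2:**
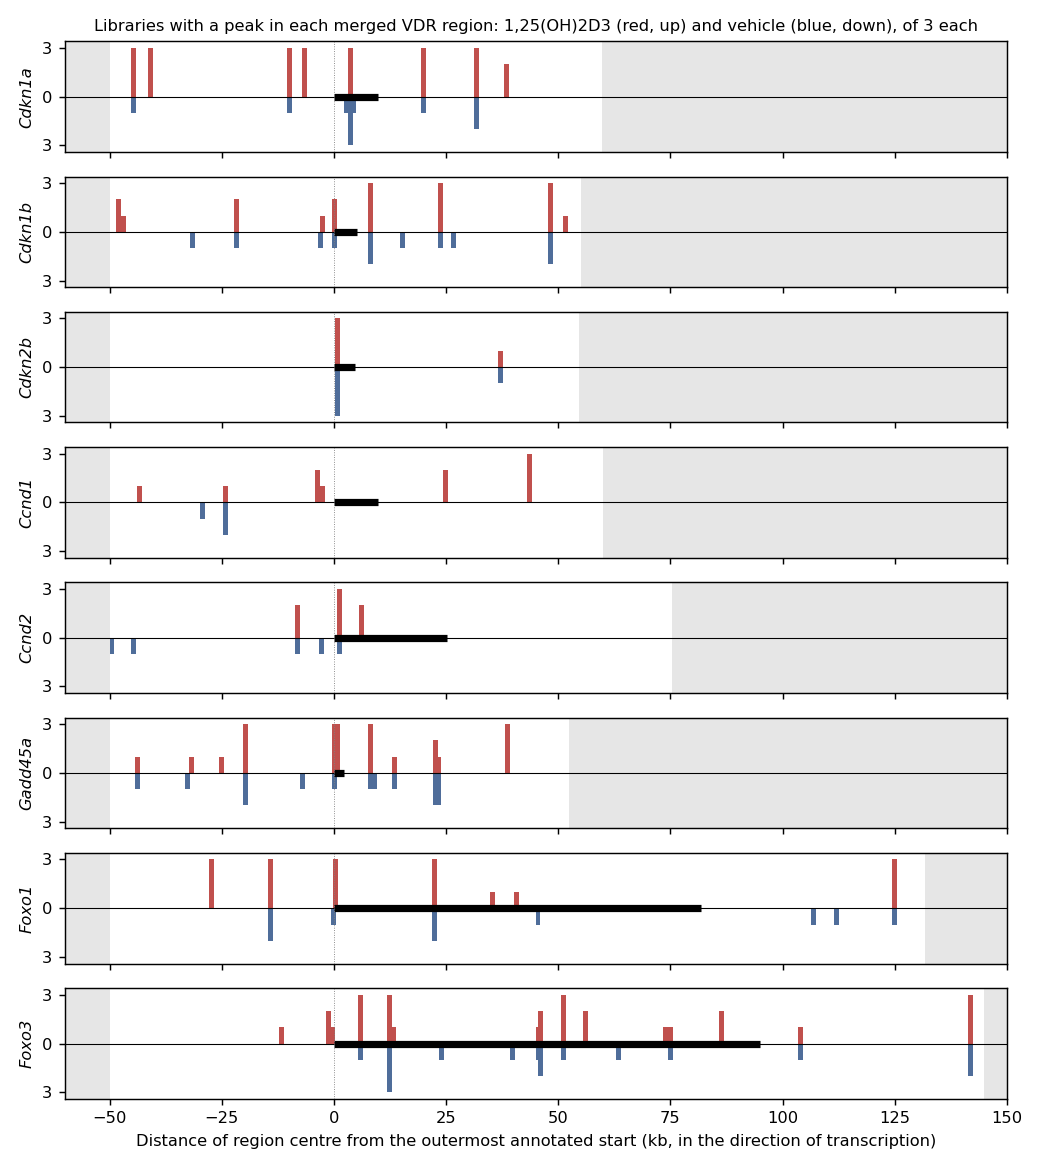
Merged VDR regions along each gene, by distance of the region's centre from the gene's outermost annotated start (kb). Bars show the number of libraries with a peak, of 3 1,25(OH)2D3 (red, upward) and of 3 vehicle (blue, downward), black bars are gene bodies, and grey areas lie outside the 50 kb window. Full red bars with no blue bar below are the 7 hormone-only regions.

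Cdkn1a (ENSMUSG00000023067.7, chr17:29227924-29237667, plus strand), whose product p21 arrests the cycle downstream of p53, had 8, 8 and 7 peaks in the 1,25(OH)2D3 libraries, against 2, 4 and 4 in the vehicle libraries. The groups did not overlap. The means were 7.67 ± 0.58 with 1,25(OH)2D3 and 3.33 ± 1.15 with vehicle (SD, n = 3), a difference of 4.33 (p = 0.1 by the exact permutation test, its lower limit). It was 1.67 when only regions with Cdkn1a as the nearest gene start were counted, since 4 of its 10 regions lay closer to the starts of Srsf3, a splicing factor, or Rab44. Over lists cut to the same length it was 0.

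The region of Cdkn1a in all 6 libraries (chr17:29231357-29231735) lay inside the gene, 3.62 kb downstream of the outermost start and 0.829 kb downstream of the nearest annotated one, outside any annotated exon. The files give every peak the same score, so its place is given as a list percentile, 100 being the first peak of a list. What value the order follows is not stated. It stood at 95.9, 96.8 and 97.0 in the 1,25(OH)2D3 lists and at 92.1, 87.6 and 97.6 in the vehicle lists, near the top of each. The closest DR3 in its window had 3 mismatches, and the window held an AGGTCA hexamer and an AP-1 motif (TGANTCA). On either side of it, vehicle replicate 2 alone had peaks at 2.79 and 4.48 kb, the first of them centred 6 bp from an annotated Cdkn1a start.

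The hormone-only regions of Cdkn1a were upstream, at -6.52 kb (chr17:29221178-29221638) and -40.8 kb (chr17:29186954-29187308). The nearer one stood at list percentiles 53.9, 31.7 and 43.2 and the farther one at 72.6, 78.9 and 85.2 in the 1,25(OH)2D3 lists. The farther one was the highest placed of the 7 hormone-only regions, whose percentiles, averaged over libraries, had a median of 44.7, against 51.0 for all 4687 in the genome. Its closest gene start is that of Srsf3. Other regions in all 3 1,25(OH)2D3 libraries were at -44.7, -9.91 and 19.9 kb, each also in 1 vehicle library, and at 31.8 kb, also in vehicle replicates 2 and 3. A region at 38.5 kb was in 1,25(OH)2D3 replicates 1 and 2 only.

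Cdkn1b (ENSMUSG00000003031.8, chr6:134870419-134875531, plus strand) encodes p27, which holds cells in quiescence. It had 6 peaks in each 1,25(OH)2D3 library, against 1, 2 and 8 in the vehicle libraries. The vehicle libraries lay on both sides of the hormone libraries (difference 2.33, exact permutation p = 0.4), and without vehicle replicate 3 the difference was 4.5. None of its 13 regions was hormone-only or in all 6 libraries, and 7 were in 1 library only. A region at its start, centred 0.138 kb inside the gene in an exon (chr6:134870382-134870732), was in 1,25(OH)2D3 replicates 2 and 3 at percentiles 49.3 and 64.4 and in vehicle replicate 3 at 88.7. The regions in all 3 1,25(OH)2D3 libraries lay downstream, at 8.10, 23.7 and 48.2 kb, and had peaks in 2, 1 and 2 vehicle libraries. Near or inside Gpr19, a region at -21.8 kb was in 1,25(OH)2D3 replicates 2 and 3 and vehicle replicate 3, and one at -48.1 kb was in 1,25(OH)2D3 replicates 1 and 2 only.

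Cdkn2b (ENSMUSG00000073802.4, chr4:88952198-88956941, minus strand) had the fewest regions of the 8 genes. It had 2, 1 and 1 peaks with 1,25(OH)2D3, against 1, 1 and 2 with vehicle, so the means were equal at 1.33 ± 0.58 in both groups (SD, n = 3, exact permutation p = 1). Its intronic region 0.89 kb downstream of the start (chr4:88955833-88956270) was in all 6 libraries and held a DR3 with 1 mismatch, GGGCGAGGGAGTTCA on the minus strand (chr4:88956091-88956105). This region stood at list percentiles 94.8, 95.1 and 96.7 with 1,25(OH)2D3, against 54.2, 48.3 and 89.1 with vehicle. All 3 vehicle values were below the 1,25(OH)2D3 values, which was also so at 11.9% of the 4345 regions found in all 6 libraries, the reverse holding at 1.38%. The lists differ in length and their order is of unknown meaning, so this is a description of position only. The other region, 37.1 kb downstream and closest to the start of the neighbouring inhibitor gene Cdkn2a, was in 1,25(OH)2D3 replicate 1 and vehicle replicate 3.

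Ccnd1 (ENSMUSG00000070348.4, chr7:152115836-152125774, minus strand), which encodes cyclin D1, a Wnt-responsive driver of G1 progression, had 3, 3 and 4 peaks with 1,25(OH)2D3, against 0, 1 and 2 with vehicle. The groups did not overlap, with means of 3.33 ± 0.58 with 1,25(OH)2D3 and 1 ± 1 with vehicle (SD, n = 3; difference 2.33, exact permutation p = 0.1). None of its 7 regions lay inside the gene. The hormone-only region, 43.5 kb downstream (chr7:152082089-152082441), lay within 1 kb of the start of Fgf15, which encodes the intestinal hormone that represses bile acid synthesis in the liver. It was low in the 1,25(OH)2D3 lists, at percentiles 4.20, 27.1 and 33.8, and held a DR3 with 1 mismatch. A region 24.9 kb downstream, within 1 kb of the start of Oraov1, was in 1,25(OH)2D3 replicates 2 and 3 and in no vehicle library, and its DR3 with 1 mismatch was GGGTGGGGCGGGTCA. Closer to Ccnd1 itself, the region 3.6 kb upstream was in 1,25(OH)2D3 replicates 1 and 3 only. A separate region 2.53 kb upstream was in 1,25(OH)2D3 replicate 2 only. When only regions nearest to the Ccnd1 start were counted, the difference was 0.667 and the groups overlapped. A region 24.1 kb upstream was in vehicle replicates 2 and 3 and in 1,25(OH)2D3 replicate 1.

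Ccnd2 (ENSMUSG00000000184.9, chr6:127075797-127101066, minus strand), which encodes cyclin D2, had 3, 1 and 3 peaks with 1,25(OH)2D3, against 0, 0 and 5 with vehicle. Both shallow vehicle libraries were below, and the deep one above, every 1,25(OH)2D3 library (difference 0.667, exact permutation p = 0.8). The sign turned to -0.167 without vehicle replicate 1 or 2, and the difference was 2.33 without vehicle replicate 3. Intronic regions lay 1.29 kb (chr6:127099506-127100041) and 6.08 kb (chr6:127094780-127095195) downstream of its start, and another region 8.11 kb upstream (chr6:127108887-127109458). The first was in all 3 1,25(OH)2D3 libraries and vehicle replicate 3. The others were in 1,25(OH)2D3 replicates 1 and 3, that at 6.08 kb in no vehicle library and that at -8.11 kb in vehicle replicate 3 as well. All 3 held a DR3 with 1 mismatch: GGTTCACCAAGGTTA at 1.29 kb, ACTTCAGAGAGGTCA at 6.08 kb and AGGTCAAAGGGTTTA at -8.11 kb. Their list percentiles were from 10.9 to 58.2 in the 1,25(OH)2D3 lists, so none was high. The window of Ccnd2 also reaches Fgf23, the gene of the phosphate-lowering hormone, but no region had the Fgf23 start as its nearest.

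Gadd45a (ENSMUSG00000036390.6, chr6:66985090-66987451, minus strand) encodes a small protein induced by DNA damage that binds p21 and other cycle proteins. It had 6, 7 and 9 peaks with 1,25(OH)2D3, against 0, 4 and 9 with vehicle, the deep libraries of both groups being equal (difference 3, exact permutation p = 0.5). Without vehicle replicate 1 the difference was 0.833, and without vehicle replicate 3 it was 5.33. Its own start was the nearest for all 14 regions. At the promoter, a region centred 0.074 kb inside the gene (chr6:66987191-66987563) was in all 3 1,25(OH)2D3 libraries, at percentiles 75.4, 69.1 and 85.2, and in vehicle replicate 3 at 89.7. A hormone-only region followed 0.841 kb downstream of the start (chr6:66986434-66986786), in an exon, at percentiles 57.4, 60.0 and 60.7. The gap between these neighbours was 404 bp, and joining regions up to 500 bp apart gave 1 region in 3 1,25(OH)2D3 libraries and 1 vehicle library. The other hormone-only region lay 38.6 kb downstream in an intron of Gng12, a G protein subunit gene (chr6:66948687-66949093).

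The highest placed regions of Gadd45a were at -19.8 kb (chr6:67007021-67007405) and at 22.6 and 23.4 kb. The upstream one was in all 3 1,25(OH)2D3 libraries at percentiles 87.3, 94.2 and 95.1 and in vehicle replicates 2 and 3 at 85.9 and 96.0. The downstream pair were 293 bp apart within Gng12 and held complementary 1,25(OH)2D3 libraries, replicate 1 at 23.4 kb and replicates 2 and 3 at 22.6 kb, while vehicle replicates 2 and 3 had both. Joined, they made a region in 3 1,25(OH)2D3 and 2 vehicle libraries. A lower placed region, at 8.08 kb, was in all 3 1,25(OH)2D3 libraries at percentiles 35.3, 42.8 and 46.9 and in vehicle replicate 2 at 27.8. The closest DR3 had 3 mismatches in all 7 regions of Gadd45a found in at least 2 libraries of a group.

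Foxo1 (ENSMUSG00000044167.5, chr3:52072259-52154031, plus strand), which encodes a FOXO factor restrained by insulin signalling, had 6, 5 and 6 peaks with 1,25(OH)2D3, against 1, 2 and 6 with vehicle. Only the deep vehicle library reached the hormone libraries (difference 2.67, exact permutation p = 0.4), and the difference was 4.17 without it. The promoter held a hormone-only region centred 0.382 kb inside the gene in an exon (chr3:52072463-52072819), at percentiles 40.1, 34.6 and 59.4. Vehicle replicate 3 had a peak of its own 0.119 kb upstream of the start, across a gap of 182 bp. The joined region was thus in 3 1,25(OH)2D3 libraries and 1 vehicle library. The other hormone-only region lay at -27.2 kb (chr3:52044933-52045260), at percentiles 61.5, 41.3 and 63.4. Further regions in all 3 1,25(OH)2D3 libraries were at -14.1 kb and in an intron at 22.5 kb, each also in 2 vehicle libraries, and beyond the gene's end (chr3:52197558-52197916), with the DR3 match GGGTCGACAGGTTCA, also in 1. The intronic region was low in the lists of both groups, with percentiles of 11.4, 16.8 and 40.4 with 1,25(OH)2D3 and of 38.0 and 36.8 in vehicle replicates 1 and 2.

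Foxo3 (ENSMUSG00000048756.4, chr10:41901647-41996561, minus strand), which like Foxo1 couples growth factor signalling to cell arrest and survival, had the most peaks. There were 7, 10 and 10 with 1,25(OH)2D3, against 2, 7 and 6 with vehicle, and the groups met at 7 (difference 4, exact permutation p = 0.2). Its body is also the longest of the 8, at 94.9 kb, and 13 of its 18 regions lay inside it. The intronic region 12.4 kb downstream of the start (chr10:41984017-41984387) was in all 6 libraries, at percentiles 76.8, 85.2 and 90.4 with 1,25(OH)2D3 and 80.3, 77.9 and 91.9 with vehicle. Its window held both an AGGTCA and an AGTTCA hexamer, and its closest DR3 had 2 mismatches. Another intronic pair, at 46.1 and 45.7 kb, 133 bp apart, divided the libraries between them, the first with 1,25(OH)2D3 replicates 2 and 3 and vehicle replicates 1 and 2, the second with 1,25(OH)2D3 replicate 1 and vehicle replicate 3. When joined they were in all 6 libraries. Intronic regions at 5.96 and 51.1 kb were in all 3 1,25(OH)2D3 libraries, the first also in vehicle replicate 3 and the second in vehicle replicate 2. Those at 56.0 and 86.5 kb were in 1,25(OH)2D3 replicates 2 and 3 and no vehicle library.

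Upstream of the Foxo3 start, the peak of 1,25(OH)2D3 replicate 1 was at -0.377 kb and those of replicates 2 and 3 were at -1.18 kb (chr10:41997575-41997900), at percentiles 64.5, 76.3 and 80.4. No vehicle library had a peak there. Because the regions were 494 bp apart, neither counted as hormone-only in the main classification, and the joined region did. Joining neighbours up to 500 bp apart, chosen after these pairs were seen, left 74 regions at the 8 genes. Of these, 6 were hormone-only and 4 were in all libraries. The shares over all regions joined in this way were not computed, so these counts have no background.

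**Figure D3:**
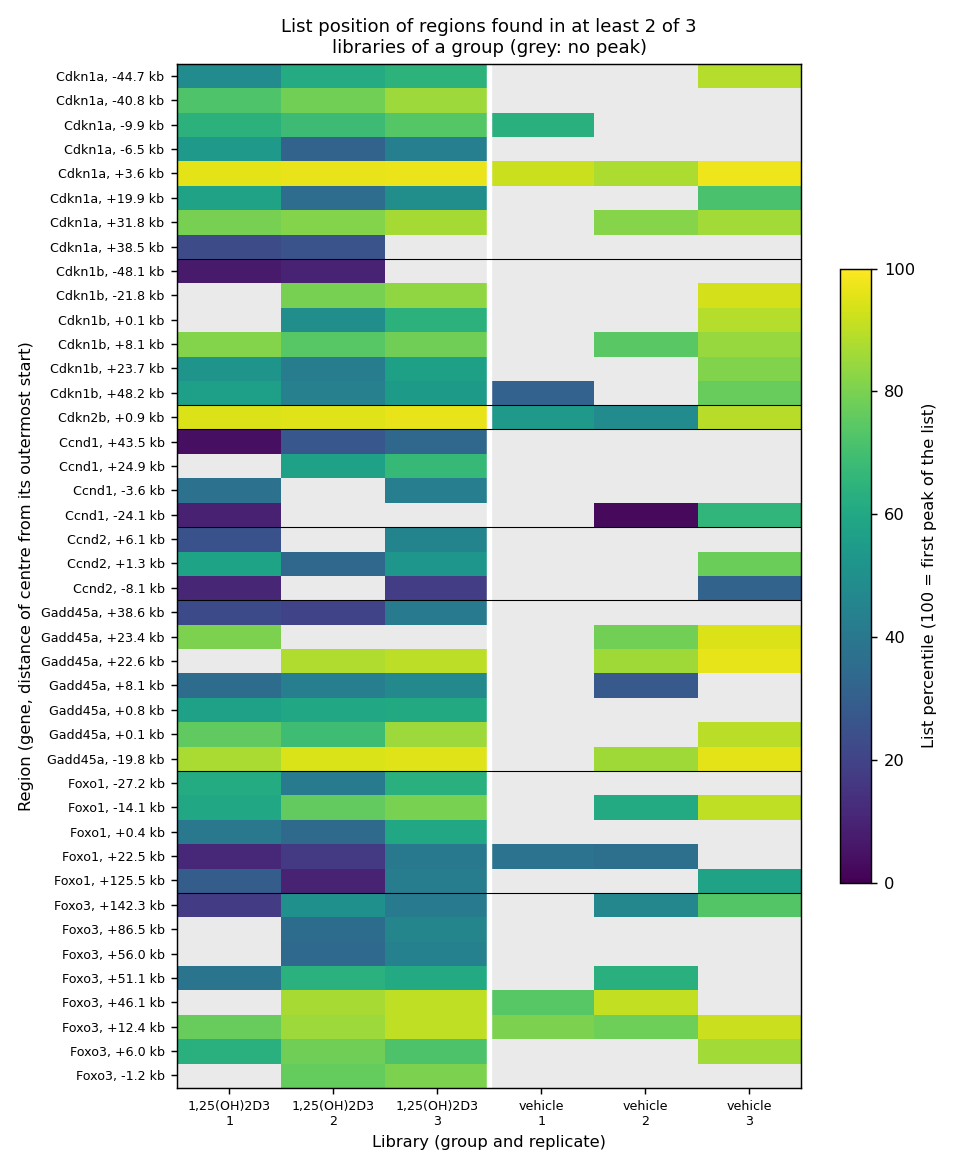
List percentile (colour; 100 is the first peak of a library's list) of the 42 regions found in at least 2 of 3 libraries of a group, by library, with 1,25(OH)2D3 on the left and vehicle on the right; grey means no peak. The regions at Cdkn1a +3.6 kb, Cdkn2b +0.9 kb and Foxo3 +12.4 kb have a peak in all 6 libraries, and the hormone-only regions are grey across the vehicle columns.

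Window length differed between genes, so peaks were also set per 100 kb of window. On that scale the order with 1,25(OH)2D3 was Gadd45a (7.16), Cdkn1a (6.99), Cdkn1b (5.71), Foxo3 (4.62), Foxo1 (3.12), Ccnd1 (3.03), Ccnd2 (1.86) and Cdkn2b (1.27 peaks per 100 kb). The first pair were within their spread over libraries of each other, as were Foxo1 and Ccnd1. With vehicle the same genes had 4.23, 3.04, 3.49, 2.56, 1.65, 0.91, 1.33 and 1.27 peaks per 100 kb. The median over the 8 genes was 3.87 with 1,25(OH)2D3 and 2.11 with vehicle, against 1.81 and 1.11 over all protein-coding genes. With 1,25(OH)2D3 all but Cdkn2b, and with vehicle all but Ccnd1, were above the median of all genes.

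Of the 40 regions in 2 or more of the 3 1,25(OH)2D3 libraries, 9 lay within 1 kb of an annotated transcription start, 12 in introns and 19 between genes. The starts were those of Cdkn1a, Cdkn1b, Cdkn2b, Gadd45a (2 regions) and Foxo1, and of the neighbours Gpr19, Oraov1 and Fgf15. Over all 81 regions, 65 (80.2%) had the start of 1 of the 8 genes as their nearest. Locations were not counted over all merged regions, and a window placed around a gene favours nearness to its start. The GC content within 100 bp of the centre had a median of 51.0% in these 40 regions and of 47.8% in all merged regions of that class.

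A DR3 with at most 1 mismatch was found in 9 of the 40 regions (22.5%), against 18.7% of the 28190 merged regions of the same class, a share near the background. In windows 5 kb to the right it was 7.5% and 4.34%. Besides those of Cdkn2b, Ccnd1, Ccnd2 and Foxo1 given above, the matches were GGGTCATAAGTTTGA at 31.8 kb of Cdkn1a (chr17:29259637-29259651) and GGGTCAGGCAGCTCA 142 kb from the start of Foxo3 (chr10:41854201-41854215). A perfect DR3 was in none of the 40, and in 3.06% of the class. With at most 2 mismatches the shares were 60.0% and 60.9%, and windows 5 kb away held it at 52.5% and 35.2%. The other motifs were searched on both strands. The hexamer AGGTCA was in 13 of 40 (32.5%, class 31.9%), AGTTCA in 9 (22.5%, class 29.4%) and the HNF4 motif CAAAGTCCA with at most 1 mismatch in 10 (25.0%, against 5627 of the 28190 in the class). The AP-1 motif TGANTCA was in 6 (15.0%, class 13.9%), the GATA motif AGATAA in 6 (15.0%, class 21.6%), the CDX motif TTTATNG in 4 (10.0%, class 13.6%) and the FOXO motif TGTTTAC in 0 (class 3.20%). The AGGTCA and AGTTCA hexamers can overlap a DR3 match.

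The wider cell cycle machinery was read from a list of 53 other genes, all found in the annotation. Of these, 49 (92.5%, all genes 70.2%) had a region in 2 or more of the 3 1,25(OH)2D3 libraries within 50 kb, and 34 (64.2%, all genes 49.0%) had one in 2 or more of the 3 vehicle libraries. A hormone-only region lay near 29 (54.7%, all genes 33.2%) and a region in all 6 libraries near 24 (45.3%, all genes 29.1%). Peak numbers were higher in every 1,25(OH)2D3 library at 16 genes (30.2%, all genes 16.0%) and lower in every one at 0 (all genes 0.0450%). The median difference was 1.67 peaks per gene, against 0.667 over all genes. Among the genes of the GADD45 family and the p53 axis, 6 of 7 had non-overlapping, higher peak numbers with 1,25(OH)2D3, compared with 2 of 5 further inhibitors, 1 of 8 further cyclins, 2 of 4 kinases, 3 of 11 retinoblastoma and E2F genes, 1 of 2 further FOXO genes and 0 of 4 growth inhibitors (Mxd1, Mxi1, Klf4 and Igfbp3). Among proliferation genes such as Myc and the Mcm helicase subunits it was 1 of 12. The share over all genes was 16.0%. No set test was run. Cdkn2a shares its regions with Cdkn2b, which lies beside it, so these are not separate observations.

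The listed genes with the most regions in 2 or more of the 3 1,25(OH)2D3 libraries were Ccng2 and Mdm2 (11 each), then Ccnd3, E2f4, Gadd45b and Mxd1 (10 each), of which the first pair by name are described. Ccng2, an atypical cyclin of growth arrest, had 8, 11 and 12 peaks with 1,25(OH)2D3, against 5, 6 and 7 with vehicle. Mdm2, the ligase that degrades p53, had 12, 13 and 13 peaks with 1,25(OH)2D3, against 3, 8 and 6 with vehicle. E2f4, a repressive E2F factor, had 9, 9 and 10 peaks with 1,25(OH)2D3, against 2, 2 and 4 with vehicle. These 3 genes had groups that did not overlap, as had 16.0% of all genes in the higher direction. At Ccnd3, which encodes cyclin D3, there were 8, 10 and 12 peaks with 1,25(OH)2D3, against 4, 4 and 9 with vehicle, and the groups overlapped. The described genes were chosen by their number of regions with 1,25(OH)2D3, which in itself favours higher peak numbers in that group. No listed gene was without a peak in all 6 libraries.

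**Figure D4:**
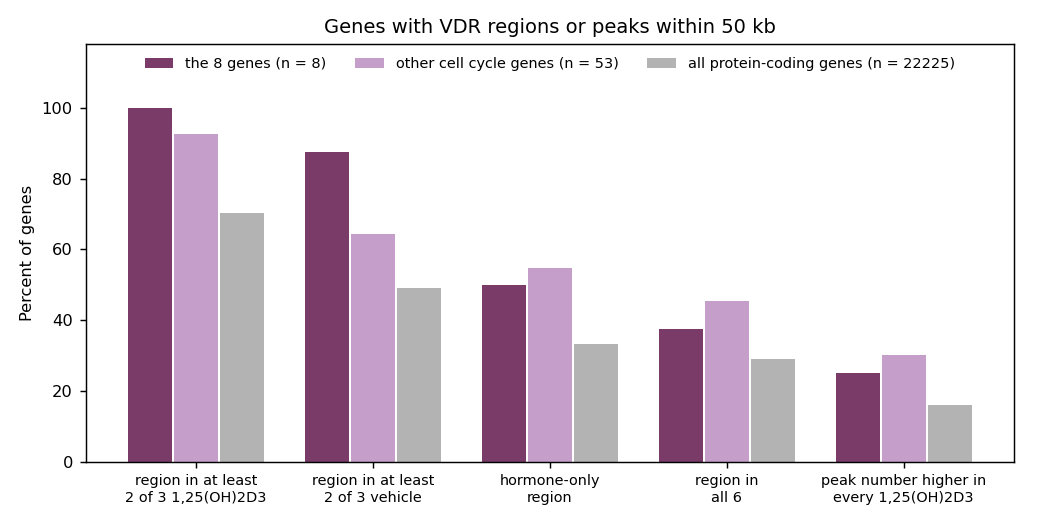
Percent of genes (y axis) that meet each of 5 criteria on VDR regions or peaks within 50 kb, for the 8 genes, the 53 other cell cycle genes and all 22225 protein-coding genes. For a region in 2 or more of the 3 1,25(OH)2D3 libraries the shares are 100%, 92.5% and 70.2%, and for peak numbers higher in every 1,25(OH)2D3 library 25.0%, 30.2% and 16.0%.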

How the data were processed

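VDR ChIP-seq peak lists of 6 libraries (3 1,25(OH)2D3, 3 vehicle, grouped by title) were used. The labels list 1 input library, from the 1,25(OH)2D3 dose, which was not analysed here. Per the labels' protocols an earlier or a later sequencer was used, and which library was read on which is not given. Per the submitters' processing notes, reads were aligned with Bowtie to mm9 and peaks called with HOMER (versions are not given in the sources used here). Per the file headers, peaks were called library by library against the same input (false discovery rate 0.001), with at least 4-fold more tags than the input and than the surrounding 10000 bp. The deposited files give the start and end of each peak, and the deposited score is 1 for every peak, so list order stood in for rank. The rows hold no tag count per peak. What value the order follows is not stated.

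Autosomal, X and Y peaks of different libraries were merged where they shared at least 1 bp, in Python 3.11.15 with numpy 2.4.6 and pandas 2.3.3. Genes were 22225 protein-coding symbols of GENCODE mouse version 1 on NCBI build 37 (mm9). Location was read at the region's centre, and motifs within 100 bp of it. Peak numbers per gene were compared by an exact two-sided permutation test, adjusted over all genes. Merging, counting, tests and motif search were tested on simulated data. The genes, lists and tests were chosen with earlier results of these data known. The text names all 8 genes, their regions in at least 2 of 3 libraries of a group, and of the listed genes the 4 with the most regions, ties being taken by name. Deviations from group means over all genes correlated weakly between same-numbered libraries (0.158, 0.124 and 0.217 for replicates 1, 2 and 3). Between libraries of different number the correlations were all lower, from -0.166 to 0.0235. Same-numbered libraries were taken as pairs in 1 alternative only, the replicate block. The permutation p-values given for each gene are unpaired. Alternatives were other windows, merging rules and list lengths, libraries left out, and depth classes.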

Additional observations from a re-analysis of the deposited data

How the results depend on the processing

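Of 104 recomputed differences at the 8 genes, 6 were reversed. A fall to 0 was not counted as a reversal. Neither Cdkn2b, whose main difference was 0, nor the replicate block could show one. With lists of equal length those of Cdkn1a and Foxo3 were 0, with a mean of 3 peaks in both groups. Ccnd1 and Ccnd2 had no peak left in either group (means of 0), so nothing could be compared there. The sign was opposite at Cdkn1b (-0.333) and Foxo1 (-0.667) with lists of equal length, at Cdkn1b (-2) and Ccnd2 (-2) in the deep libraries alone, and at Ccnd2 without vehicle replicate 1 or 2 (-0.167 each; range with a library left out -0.167 to 2.33). Cdkn2b, with no difference, had -1 in the deep pair. The cause was not tested. Genes with higher peak numbers in every 1,25(OH)2D3 library numbered 0 with lists of equal length (4.05% of all genes). They numbered 6 in shallow libraries and 1 when only regions nearest the own start counted. For these 2 settings the share over all genes was not computed. With libraries left out in turn they numbered 2 to 6, the 6 being without vehicle replicate 3 (42.3% of all genes). Genes with a higher mean numbered 1 with lists of equal length (24.5% of all genes) and 3 in the deep pair (45.0%), where 3 were lower (32.2%). Hormone-only regions numbered 3 of 51 within 20 kb and 12 of 133 within 100 kb (5.39% of all merged regions). They numbered 1 of 26 with equal lists (4.05% of all) and 8 to 14 with a library left out, the 14 being without vehicle replicate 3 (13.8% of all). Regions in all libraries numbered 7 of 133 within 100 kb (4.99% of all merged regions). With a library left out they numbered 3 to 8, the 8 being without vehicle replicate 1 (8.05% of all). For the other libraries left out the share of regions in all libraries was not computed. All regions numbered 51, 133 and 26 within 20 kb, 100 kb and with equal lists. Allowing 2 DR3 mismatches gave 24 regions. The replicate block leaves the means and the overlap of the groups as they are by construction (2 genes with higher numbers in every 1,25(OH)2D3 library, 7 with a higher mean), and the smallest p it can give is 0.25 (exact), so it could change no call and says nothing about stability. Depth limits these results: without tag counts, absence of a peak in a shallow library does not show absence of binding.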
